A study of Mus musculus with 31 samples.

Results

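The interferon response genes are genes that cells switch on after type I, II or III interferon binds its receptor. They were taken from a list of 45 gene symbols that leaves the STAT genes out, and 44 of the 45 were among the 22609 genes of both expression tables. Ifi27 was not analysed here. All 44 had at least 1 FPKM (fragments counted per length of transcript and per size of library) in at least 2 of the 6 genotype columns at each stage, the floor used for comparing genes. The rule that picks them uses gene symbols and no measured value, but the list was drawn up with earlier results of these data known.

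Interferons are secreted proteins that signal infection or nucleic acid stress to neighbouring cells. Their receptors activate the kinases JAK1, JAK2 and TYK2, which start a signal that reaches the nucleus. Type I and III interferons act there through the interferon-stimulated response element (ISRE), which is bound by a complex that holds IRF9. Type II interferon acts through the gamma-activated site (GAS), a motif that STAT5 can also bind. The induced genes encode nucleic acid sensors, antiviral enzymes, ubiquitin-like modifiers and the machinery that loads peptides on class I molecules. Macrophages, endothelium, fibroblasts and epithelium can all express them. STAT5A and STAT5B act downstream of the prolactin receptor in mammary epithelium.

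Poly(A) RNA was sequenced from mouse mammary gland freed of lymph nodes, on a mixed 129SV::FVB/N::C57BL/6 background, at day 6 of pregnancy and at parturition within 12 hours of delivery. The 6 genotypes carried 0 to 4 functional alleles of the adjacent genes Stat5a and Stat5b, and the question was how expression depends on that dose. Null mice were Stat5ab fl/fl with MMTV-Cre, so their deletion depends on a mammary tumour virus promoter (MMTV-Cre line A), and the labels name the mammary epithelial cells as the deficient ones. B mice (Stat5ab null/Stat5a-) had 1 Stat5b allele and A mice (Stat5ab null/Stat5b-) had 1 Stat5a allele. BB mice were Stat5a-/- with 2 Stat5b alleles, AB mice were Stat5ab+/null with 1 allele of each gene, and AABB mice were wild type. The labels of B, A, BB and AB name no Cre, so Null differs from them in how alleles were lost as well as in how many. Of the 31 samples listed, 18 are from day 6, 3 in each group, and 13 from parturition, 3 from B mice and 2 in every other group. The protocol speaks of 2 mice of each genotype, and nothing else says whether samples came from separate animals. Tags of B and A samples share numbers and differ in the letter L or R, and whether a shared number means a shared animal is not given in the sources used here.

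Each table holds 1 column per genotype, the authors' mean over its samples. The spread between animals is thus not known for any value below, and nothing could be tested. Levels are given as FPKM after the columns of a stage were brought to 1 scale. The 2 tables were normalised separately, so levels at the 2 stages are set side by side without a test. Ratios are log2 ratios to AABB of scaled FPKM + 1, which understate differences of weakly expressed genes, and a gene is counted as higher or lower when it differed at least 2-fold on this scale. The sequencing depth is unknown. The columns added up to 433958 to 528347 FPKM at day 6 and to 432576 to 1190588 at parturition, where milk protein genes took 65.2% of FPKM in AABB and 0.622% in Null. Stat5a was lowest in BB at both stages (3.67 and 4.30, against 33.6 and 70.8 in AABB). In the column labelled B, with no functional Stat5a allele, Stat5a stood at 12.5 and 8.60. That is above BB, which has no functional Stat5a allele either, and close to AB at day 6 (13.4). Likewise, A mice lack a functional Stat5b allele, and Stat5b stood there at 10.6 and 10.3, against 16.7 and 25.4 in AABB. In Null, with 0 functional alleles in the labels, Stat5a stood at 13.6 and 6.96, above BB at both stages, and Stat5b at 9.04 and 7.65. These levels therefore do not check the labels of Null, B and A, and the reason was not tested. Null, B and A below mean the columns so labelled.

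The DNA around the start sites of a part of these genes holds the letters of the ISRE. A promoter window of 300 bases (250 before to 50 after the start, RefSeq, GRCm38.p6) was matched by symbol for 34 of the 44 genes. The ISRE was searched as TTTC, any 2 bases and TTTC, or on the other strand GAAA, any 2 bases and GAAA, and it was found in 14 of the 34 (41.2%), against 3.99% of 27025 genes. The 14 were Ddx58, Ifih1, Eif2ak2, Ifit1, Ifit3, Oas3, Isg15, Rsad2, Bst2, Trim30a, Gbp2, Gbp3, Igtp and Irgm1. The longer form, which ends in GAAAC or on the other strand starts with GTTTC, was found in 11 of the 34 (32.4%), against 0.944%. The GAS letters TTCNNNGAA, which read the same on both strands, were found in 8 of the 34 (23.5%), against 9.55%, namely in Eif2ak2, Irf1, Irf8, Ifit2, Bst2, Ifi35, Psmb8 and Igtp. ISRE and GAS matches overlapped in Bst2 alone among the 34. A match describes the letters of the window and not a bound site. The stretches below are shown because their genes stand for the different patterns that follow. Ifit1, Isg15, Oas3, Gbp2 and Irgm1 were highest in Null or BB at parturition. Of these, Ifit1, Isg15, Oas3 and Irgm1 were also lowest in Null at day 6. Bst2 was highest in wild type at parturition. Capitals mark the ISRE letters, and each stretch reads 5′ to 3′ on the strand of its gene.
Ifit1: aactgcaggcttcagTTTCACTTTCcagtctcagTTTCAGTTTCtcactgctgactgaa
Isg15: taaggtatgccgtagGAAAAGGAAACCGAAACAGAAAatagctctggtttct
Oas3: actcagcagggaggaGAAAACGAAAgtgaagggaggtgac
Gbp2: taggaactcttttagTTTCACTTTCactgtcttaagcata
Irgm1: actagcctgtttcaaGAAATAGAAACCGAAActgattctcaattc
Bst2: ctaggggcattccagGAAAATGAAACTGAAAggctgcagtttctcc
The Ifit1 stretch lies at chr19:34640770-34640828 on the plus strand and holds 2 matches that do not overlap, the nearer one 75 bases before the start. The Isg15 stretch lies at chr4:156200860-156200911 on the minus strand and holds 3 overlapping matches in a run of GAAA repeats. The Oas3 stretch (chr5:120777710-120777749, minus strand) and the Gbp2 stretch (chr3:142620589-142620628, plus strand) hold 1 match each. The Irgm1 stretch (chr11:48871421-48871465, minus strand) and the Bst2 stretch (chr8:71537572-71537617, minus strand) hold 2 overlapping matches each.

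At parturition the interferon response genes were higher in every mutant genotype than in wild type, in median, and most so in Null. In Null, 27 of 44 were at least 2-fold higher and 1 was lower, where 19.1% of all genes compared were higher and 10.7% lower. Their median log2 ratio was 1.12, against 0.10 over all genes. In B, 17 were higher and 2 lower (18.2% and 10.1% of all genes), with a median of 0.78 against 0.11. In A, 12 were higher and 2 lower (17.3% and 10.0%), with a median of 0.69 against 0.10. The share of members that were higher thus stood above the share of all genes in these 3 genotypes. It did so in BB too, where 14 were higher and 0 lower (8.07% and 5.37%), with a median of 0.64 against 0.05. In AB, 3 were higher and 2 lower (10.2% and 5.45%), near the shares of all genes, and the median was 0.32 against 0.04. The scaling bears on these counts and on those of all genes. With no scaling, 27 were higher and 1 lower in B (29.1% of all genes higher), 26 and 1 in A (27.2%), and 7 and 1 in AB (13.6%). With scaling to the total without milk protein genes, 20 were higher and 2 lower in A (22.2% of all genes higher) and 8 and 0 in AB (15.4%). Ifit2, Oasl2 and Sp100 were at least 2-fold higher in all 5 genotypes, as were 4.92% of all genes.

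At day 6 of pregnancy the order was a different one, and Null did not stand above wild type. In Null, 0 of 44 were higher and 0 lower (2.21% and 2.09% of all genes), the median was -0.17 against 0.00, and 11 of the 44 lay above zero, against 50.1% of all genes. In B, 7 were higher and 1 lower (7.56% and 5.18%), with a median of 0.39 against 0.04. In A, 4 were higher and 3 lower (7.01% and 5.54%), with a median of 0.24 against 0.03, so the count in A is near that of all genes (5 higher and 2 lower with no scaling, where 7.50% of all genes were higher, and 8 and 2 with the total without milk protein genes, where 10.6% were). In BB, 0 were higher and 1 lower (5.12% and 3.60%), with a median of -0.01 against -0.02. In AB, 8 were higher and 0 lower (6.78% and 5.01%), with a median of 0.41 against -0.01, and 3 were higher and 0 lower with no scaling (5.05% of all genes higher). These 5 comparisons share the AABB column at each stage, so a high or low value there enters all of them.

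**Figure D1:**
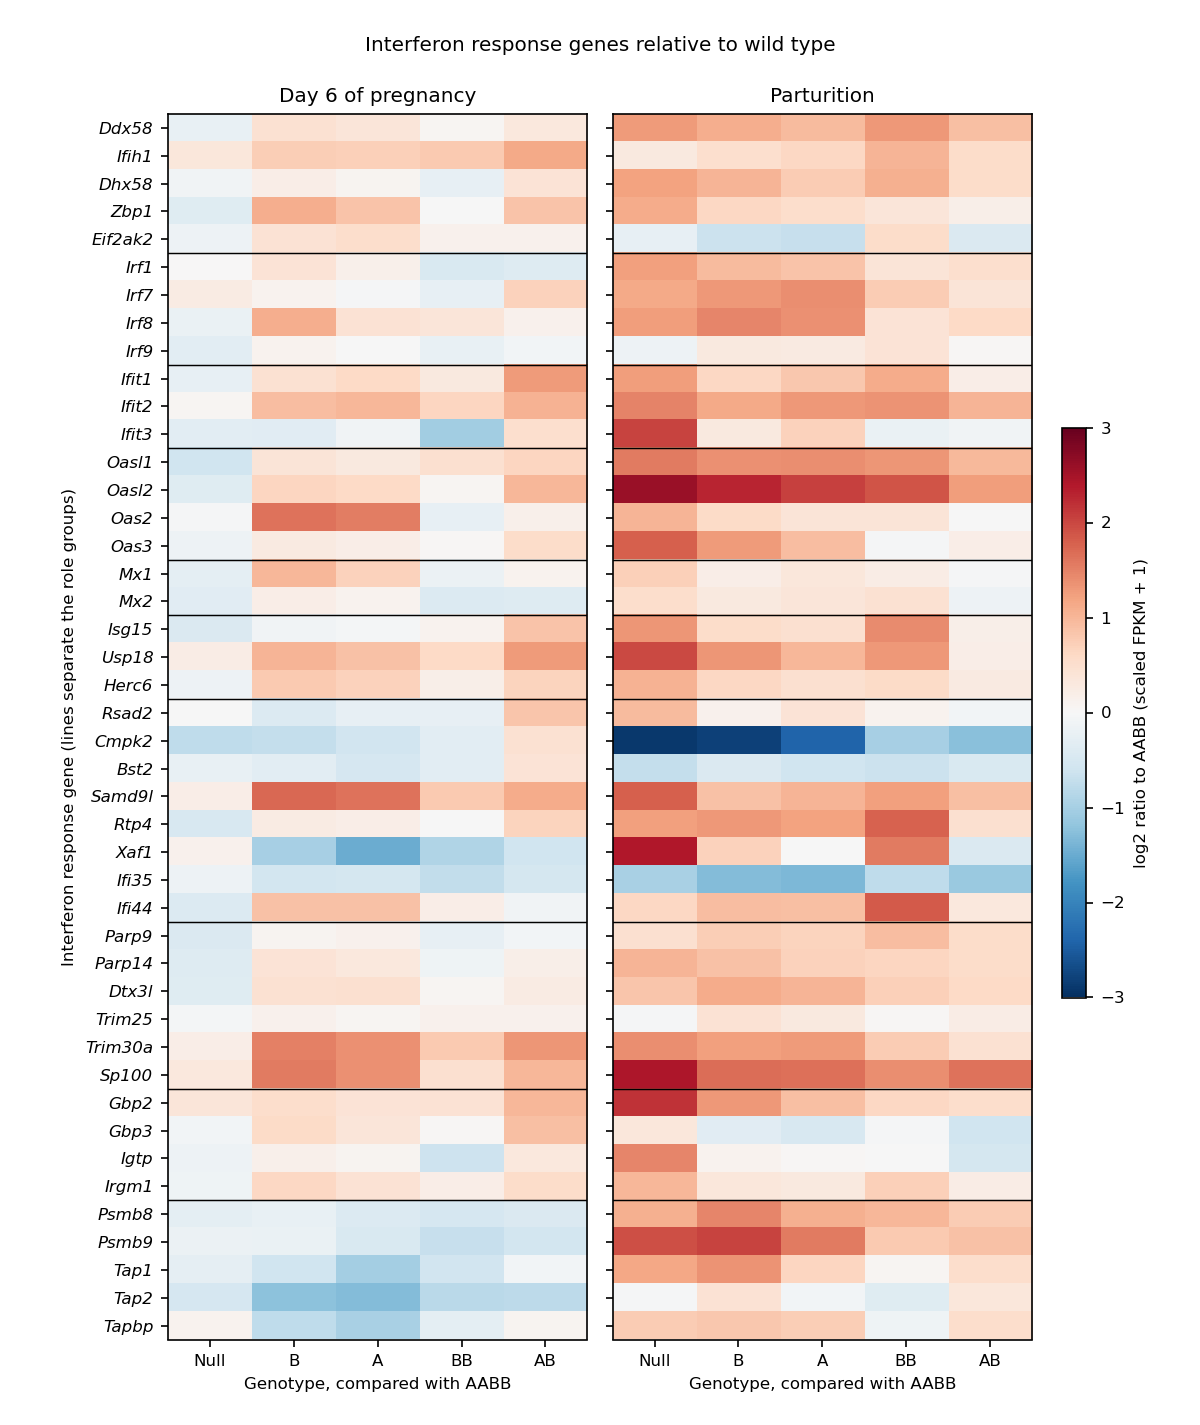
Log2 ratio to AABB (scaled FPKM + 1, colour scale from -3 to 3) of the 44 interferon response genes in 5 genotypes at day 6 of pregnancy and at parturition, 1 mean per cell, with lines between the 10 role groups. The Null column is mostly pale or blue at day 6 and mostly red at parturition, and Cmpk2 is the darkest blue row at parturition (-2.90 in Null).

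**Figure D2:**
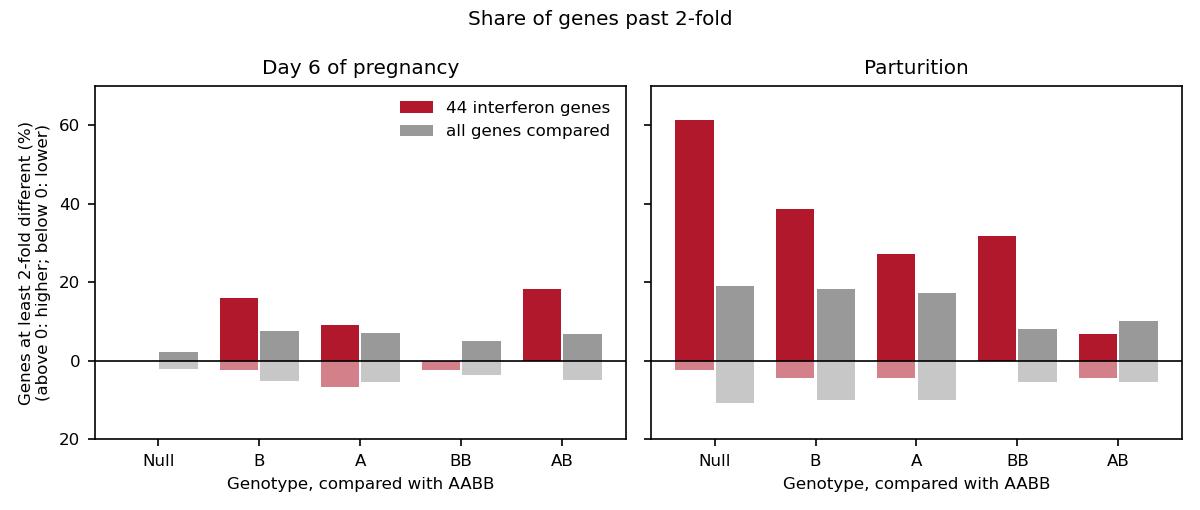
Percent of the 44 interferon response genes (red) and of all genes compared (grey) that were at least 2-fold higher (above 0) or lower (below 0) than AABB, by genotype and stage, from 1 mean per genotype with no error bar. The red bar for Null at parturition stands for 27 of 44 genes beside 19.1% of all genes, and at day 6 Null has no red bar.

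The order of the 6 columns put this plainly. At day 6, Null was the lowest column for 21 of the 44 genes, against 17.7% of all genes. AB was the highest for 18 (15.3%), B for 15 (15.9%), and AB was the lowest for 0 (18.7%). At parturition, AABB was the lowest column for 27 (37.3%) and Null the highest for 24 (26.6%), while AABB was the highest for 3 (28.2%) and B the lowest for 0 (7.14%). These column orders were counted after the values had been seen, and neighbours in an order may differ by less than the unknown spread between animals. Zbp1, Ifit1, Oasl1, Oasl2, Oas3, Mx1, Herc6, Parp14, Gbp3 and Irgm1 were lowest in Null at day 6 and highest in Null at parturition, which makes 10 of 44 against 1.90% of 12757 genes compared at both stages. At parturition 8 genes (Zbp1, Irf1, Oasl1, Oasl2, Parp14, Trim30a, Sp100 and Gbp2) stood in the order of allele number, with Null above both single-allele genotypes, these above both genotypes with 2 alleles, and AABB lowest. Among all genes 10.0% did the same. The opposite order, rising with each step, held for Cmpk2 (6.78% of all genes). At day 6 neither order held for any of the 44 (0.531% and 0.823% of all genes).

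The cytoplasmic nucleic acid sensors were higher at parturition in 3 of 5 members in Null and in BB, 2 of 5 in B, and 0 of 5 in A and AB. Ddx58, which encodes the RNA sensor RIG-I, stood at 22.0 in Null, 19.2 in B, 17.2 in A, 22.4 in BB, 16.8 in AB and 8.47 in AABB. All 5 mutant columns lay above wild type, and BB had the largest log2 ratio, 1.31. Eif2ak2, the RNA-activated kinase PKR, reached the highest single value of the 5 sensors, in BB, but its median over the columns was below that of Ddx58 (13.5 against 18.2). Eif2ak2 stood at 14.4 in Null, 10.8 in B, 10.4 in A, 25.9 in BB, 12.7 in AB and 17.3 in AABB. It lay above wild type in BB alone, within 2-fold in every genotype. Zbp1, a sensor of Z-form nucleic acid, stood at 12.2 in Null and 5.07 in AABB at parturition, and at day 6 at 2.10 in Null, 7.43 in B, 6.13 in A, 2.92 in BB, 6.22 in AB and 2.97 in AABB. Its day 6 columns split into B, A and AB at about the same level and the other 3 below. Ifih1 (MDA5), another RNA sensor, was at least 2-fold higher in AB at day 6 (log2 ratio 1.13), and Dhx58 (LGP2), a regulator of both RNA sensors, was higher in Null, B and BB at parturition (1.20, 1.01 and 1.06).

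The interferon regulatory factors, which carry the signal on to DNA, were higher in 3 of 4 members in Null and in 2 of 4 in B and A at parturition. Irf7, the factor that amplifies type I interferon production, stood at 31.2 in Null, 35.5 in B, 37.8 in A, 23.9 in BB, 18.3 in AB and 13.7 in AABB. Irf8, a factor of myeloid and dendritic cells, stood at 6.81 in Null, 8.06 in B, 7.45 in A, 3.36 in BB, 3.91 in AB and 2.26 in AABB. For both genes the columns with 0 or 1 allele lay above those with 2 alleles, and these above wild type. At day 6 Irf8 stood at 20.8 in B, against 7.87 in Null, 12.8 in A, 12.1 in BB, 10.2 in AB and 9.22 in AABB, so B alone was past 2-fold (log2 ratio 1.10). Irf1, which type II interferon induces, was higher in Null at parturition (26.5 against 10.7). Irf9, the DNA-binding part of the complex on the ISRE, differed from AABB by at most 0.41 on the log2 scale in any genotype at either stage.

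The IFIT proteins bind foreign RNA. Ifit3 stood at parturition at 25.1 in Null, 6.78 in B, 9.21 in A, 4.55 in BB, 4.95 in AB and 5.36 in AABB. Null stood apart from the other 5 columns, with a log2 ratio of 2.04. At day 6 Ifit3 stood at 7.18 in Null, 6.95 in B, 8.35 in A, 3.88 in BB, 13.4 in AB and 9.13 in AABB, which made it the single member at least 2-fold lower in BB (-1.05). Ifit1 was highest in AB at day 6, at 9.60 against 3.34 in AABB and 2.66 in Null. Ifit2, the neighbour of Ifit3 on chromosome 19, did not share the Null-only pattern at parturition: it stood at 7.04 in Null, 5.35 in B, 6.12 in A, 6.35 in BB, 4.87 in AB and 1.89 in AABB. Near-identical copies of Ifit genes may share fragments with these, so the split between them is uncertain.

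The OAS family makes or resembles the oligoadenylate synthetases that activate RNase L. It had the highest group median at parturition in Null, 1.68, with 4 of 4 members at least 2-fold higher (19.1% of all genes). Oasl2 stood at 26.7 in Null, 21.5 in B, 18.2 in A, 16.2 in BB, 9.97 in AB and 3.62 in AABB. Each mutant column was at least 2-fold above wild type, and the log2 ratios ran from 2.58 in Null to 1.25 in AB. At day 6 the same gene stood at 6.21 in Null, 13.5 in B, 13.1 in A, 8.69 in BB, 17.6 in AB and 8.23 in AABB, with Null lowest and AB highest. Oas2 differed from its relatives at day 6, at 6.37 in B and 5.84 in A and between 1.00 and 1.63 in the other 4 columns. Its log2 ratios in B and A, 1.64 and 1.53, were the largest of the family at that stage, while its chromosome 5 neighbour Oas3 gave 0.27 and 0.20. Oas3 and Oasl1 were weakly expressed (at most 4.47), and their ratios depend on the pseudocount: Oas3 in Null at parturition gave 1.80 with a pseudocount of 1 and 2.99 with 0.1. At parturition Oas3 passed the floor only through Null, B and A (3.87, 2.40 and 1.65), the columns where it was high. It stood at 0.36 in BB, 0.61 in AB and 0.40 in AABB, and the group median of 1.68 rests in part on it.

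**Figure D3:**
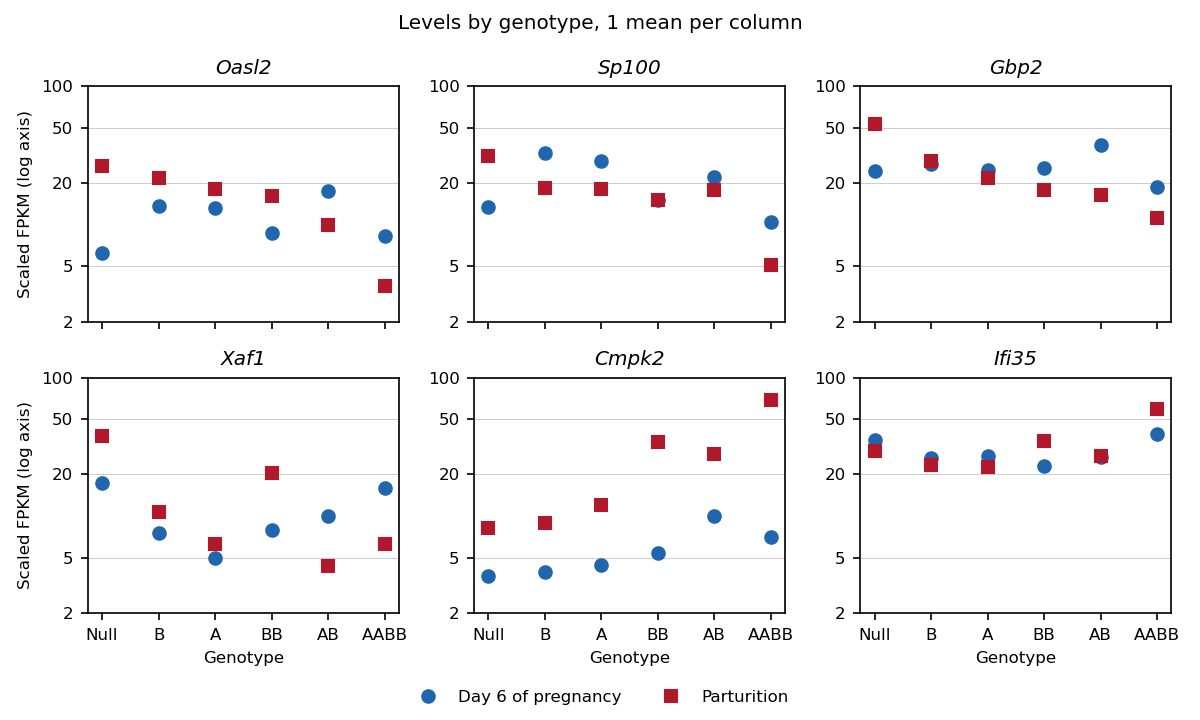
Scaled FPKM (log axis) of 6 interferon response genes in the 6 genotypes at day 6 of pregnancy (blue circles) and at parturition (red squares), 1 mean per point and no error bar. Oasl2 and Gbp2 run downward from Null to AABB at parturition but not at day 6, Sp100 is lowest in AABB at both stages, Xaf1 is high in Null and BB at parturition, and Cmpk2 and Ifi35 are highest in AABB at parturition.

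The Mx GTPases, which trap viral particles, were at the bottom of the measured range. Mx1 stood at parturition at 1.51 in Null and between 0.472 and 0.912 in the other 5 columns. At day 6 it stood at 2.15 in B and 1.56 in A and between 0.281 and 0.711 elsewhere. Mx2 reached at most 2.17, in Null at parturition. Neither gene was past 2-fold in any comparison with a pseudocount of 1. Common laboratory strains carry defective Mx1 alleles, and the background here was mixed.

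ISG15 is a ubiquitin-like protein that is attached to other proteins, HERC6 is its ligase in mice, and USP18 removes it and damps receptor signalling. Isg15 stood at parturition at 32.9 in Null, 18.8 in B, 18.1 in A, 35.5 in BB, 14.3 in AB and 12.6 in AABB. Null and BB thus formed an upper pair (log2 ratios 1.32 and 1.43), and the other 3 mutants lay within 2-fold of wild type. Usp18 stood at 14.9 in Null, 9.16 in B, 7.12 in A, 8.95 in BB, 3.71 in AB and 3.07 in AABB, with AB near wild type. At day 6 AB was instead the highest column of both genes, with Isg15 at 22.4 against 11.9 in AABB and Usp18 at 9.18 against 3.23. Herc6 was weaker, at 4.25 in Null and 1.56 in AABB at parturition.

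Among the 8 other antiviral effectors, 3 were higher in Null at parturition and 1 was lower. Cmpk2, a mitochondrial nucleotide kinase, ran against the rest, at 8.29 in Null, 8.92 in B, 12.1 in A, 34.1 in BB, 28.0 in AB and 68.5 in AABB. Its level followed allele number from Null up to wild type, and its log2 ratios ran from -2.90 in Null to -0.98 in BB. Rsad2 (viperin), which lies beside Cmpk2 on chromosome 12 and is often induced with it, stood at 8.97 in Null, 4.61 in B, 5.82 in A, 4.57 in BB, 3.86 in AB and 4.16 in AABB. The 2 neighbours therefore pointed in opposite directions in Null, 0.95 for Rsad2. At day 6 Cmpk2 ranged from 3.73 in Null to 10.01 in AB, with 7.03 in AABB, and was within 2-fold of wild type in every genotype.

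Ifi35, an interferon-induced leucine zipper protein, was also highest in wild type at parturition, at 59.5, against 29.6 in Null, 23.5 in B, 22.8 in A, 34.9 in BB and 27.1 in AB. It was at least 2-fold lower in B, A and AB and just within 2-fold in Null (-0.98). Bst2 (tetherin), which holds budding virus at the membrane, was the most abundant of these effectors, at 71.8 in Null, 86.9 in B, 78.1 in A, 74.8 in BB, 85.9 in AB and 118 in AABB. Its wild-type column was the highest, with every ratio within 2-fold. Cmpk2, Ifi35 and Bst2 were the 3 members that were highest in AABB at parturition.

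Xaf1, a proapoptotic interferon target, stood at parturition at 37.9 in Null, 10.8 in B, 6.28 in A, 20.5 in BB, 4.37 in AB and 6.32 in AABB. Null and BB were high, A, AB and AABB were low, and B lay between them. At day 6 Xaf1 was lower in A than in wild type (5.02 against 15.9, log2 ratio -1.49), and Null was highest at 17.5. Samd9l, an antiviral factor of haematopoietic and other cells, had the largest day 6 ratios of the list in B and A with a pseudocount of 1, though with 0.1 those of Oas2 were larger (2.14 against 1.92 in B and 2.02 against 1.82 in A): 5.09 in Null, 16.5 in B, 15.3 in A, 8.06 in BB, 10.4 in AB and 4.28 in AABB. With the trend of transcript length and GC content removed its log2 ratios moved from 1.73 to 1.11 in B and from 1.63 to 0.98 in A. Rtp4 and Ifi44 were highest in BB at parturition, at 42.1 and 26.0, against 28.9 and 10.6 in Null and 11.7 and 6.54 in AABB.

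The group of PARP, TRIM and nuclear body proteins held the gene with the second largest ratio of any member in Null at parturition. Sp100, a nuclear body protein that represses viral DNA, stood at 31.5 in Null, 18.5 in B, 18.0 in A, 15.1 in BB, 17.8 in AB and 5.08 in AABB. Wild type was far below the other 5 columns, and log2 ratios ran from 2.42 in Null to 1.41 in BB. At day 6 Sp100 stood at 13.3 in Null, 33.02 in B, 28.9 in A, 15.05 in BB, 22.0 in AB and 10.5 in AABB, so wild type was again lowest and Null next. Mouse Sp100 has many near-identical partial copies on chromosome 1, so its level is uncertain. Trim30a, a restriction factor with close paralogs, followed the same day 6 order, at 11.3 in B, 10.3 in A, 9.79 in AB, 6.44 in BB, 3.99 in Null and 3.32 in AABB. Parp9 and Dtx3l, which work as a pair in histone ubiquitination, and Parp14 lie side by side on chromosome 16. At parturition all 3 were lowest in AABB, with Dtx3l at least 2-fold higher in B and A (1.11 and 1.02) and Parp14 in Null (1.01). Trim25, which modifies RIG-I, was steady, between 17.1 and 24.3 in all 12 columns.

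The GBP and IRG GTPases attack membranes of intracellular pathogens and answer mainly to type II interferon. Gbp2 stood at parturition at 53.2 in Null, 28.8 in B, 21.6 in A, 17.7 in BB, 16.3 in AB and 11.1 in AABB. It stepped down with each added allele, with a log2 ratio of 2.16 in Null. At day 6 it stood at 24.3 in Null, 27.2 in B, 24.9 in A, 25.6 in BB, 37.8 in AB and 18.6 in AABB, and AB was the highest. Igtp (Irgm3) was high in Null alone at parturition, at 39.6 against 9.20 to 14.9 in the other 5 columns. Gbp3, 1 gene away from Gbp2 on chromosome 3, stood at 19.9 in Null, 12.0 in B, 10.8 in A, 15.2 in BB, 9.87 in AB and 15.5 in AABB. The pair therefore differed: Gbp2 was above wild type in every mutant, and Gbp3 in Null alone, within 2-fold. GBP genes are close paralogs, so fragments may be split between them.

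The genes of class I antigen processing had group medians below wild type in all 5 genotypes at day 6. Their median log2 ratio at day 6 was -0.61 in B, -0.98 in A, -0.57 in BB, -0.42 in AB and -0.27 in Null. Tap2, which with Tap1 forms the peptide transporter, stood at 54.3 in Null, 32.2 in B, 30.7 in A, 43.3 in BB, 44.6 in AB and 77.1 in AABB. It was at least 2-fold lower in B and A (-1.23 and -1.30), as was Tap1 in A (-1.01). Tapbp (tapasin), the most abundant member, stood at 127 in Null, 69.5 in B, 59.6 in A, 96.6 in BB, 124 in AB and 118 in AABB. B and A were thus the low columns of Tapbp and Tap2. At parturition the medians were 1.08 in Null, 1.35 in B, 0.74 in A, 0.05 in BB and 0.54 in AB, so the group was near wild type in BB, where Tap2 (-0.35) and Tapbp (-0.12) lay below it. Psmb9, an immunoproteasome subunit, stood at 47.5 in Null, 51.4 in B, 36.8 in A, 21.1 in BB, 22.6 in AB and 11.8 in AABB. Columns with 0 or 1 allele lay above those with 2 alleles, which lay above wild type. The 4 genes Psmb9, Tap1, Psmb8 and Tap2 follow each other on chromosome 17, and the start windows of Psmb9 and Tap1 share 275 bases on opposite strands. Tap2 nevertheless differed from its neighbours at parturition, at 42.2 in Null and 43.3 in AABB.

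AB and BB carry 2 alleles each, and their comparison was made after the values had been seen. At day 6 the interferon response genes were higher in AB: 41 of 44 lay above BB, against 47.0% of all genes, and 3 were at least 2-fold higher and 0 lower (1.73% and 0.988%). Ifit3 had the largest log2 ratio of AB to BB, 1.56, followed by Rsad2 (1.09) and Ifit1 (1.00). At parturition they were lower in AB: 33 of 44 lay below BB, against 51.3% of all genes, and 0 were at least 2-fold higher and 5 lower (1.06% and 0.720%). The 5 were Xaf1 (-2.00), Ifi44 (-1.53), Rtp4 (-1.28), Isg15 (-1.25) and Usp18 (-1.08). In 32 of the 44 both held, against 23.1% of all genes, and the reverse held in 2 (24.8%). The class I genes departed from this at parturition, where 4 of 5 lay above BB. The AB column of day 6 also held far more skeletal muscle transcript than the others: 7 muscle genes summed to 5920, against 25.2 to 409 in the other 5 columns. All 10 luminal epithelial markers were lower in AB than in BB at day 6 (log2 ratios from -0.80 to -0.25), and all 7 adipocyte markers were higher (0.29 to 1.52). The class II genes H2-Aa, H2-Ab1 and Cd74 were higher too (0.82, 0.97 and 0.56). The 10 macrophage markers went both ways, from -0.50 for Cd68 to 0.60 for C1qb, with a median of 0.02. The part of these differences in the interferon result was not tested.

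**Figure D4:**
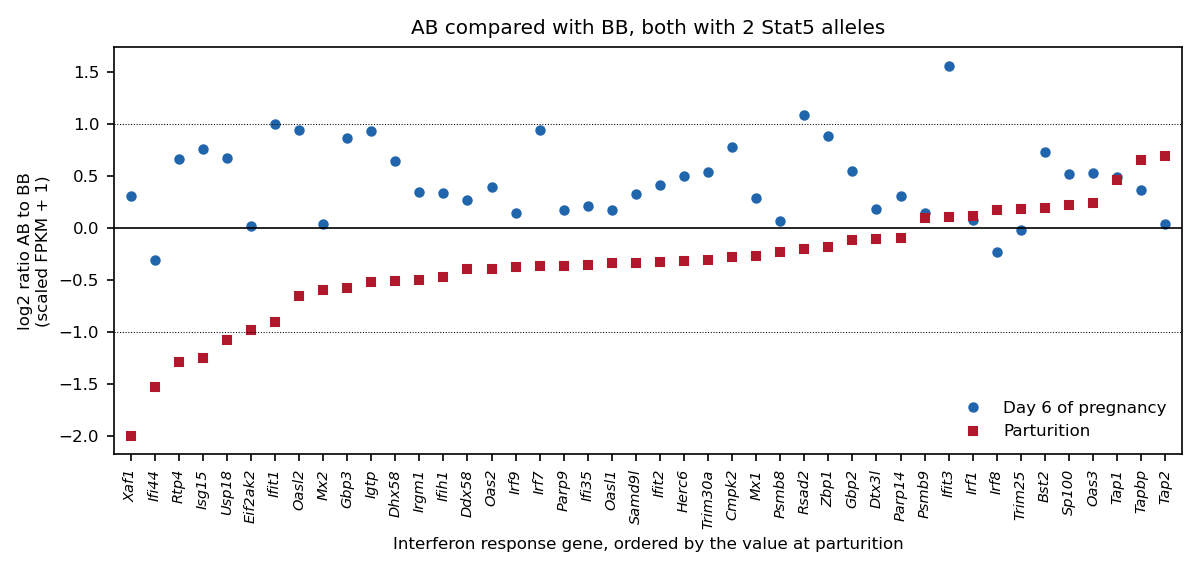
Log2 ratio of AB to BB (scaled FPKM + 1) for each of the 44 interferon response genes, ordered by the value at parturition (red squares), with day 6 of pregnancy as blue circles and dotted lines at 2-fold. Most circles lie above 0 (41 of 44) and most squares below it (33 of 44).

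A and B, with 1 allele each, differed little in these genes, as in all genes. None of the 44 differed 2-fold in either direction at either stage, where 0.135% of all genes were higher and 0.247% lower in A at day 6 and 0.360% and 0.345% at parturition. The medians of A to B were -0.10 and -0.08, against 0.00 and -0.01 over all genes, and 10 of 44 members lay above B at day 6 and 12 at parturition, against 48.3% and 48.2% of all genes. The largest differences were Tap1 and Xaf1 at parturition, both -0.70, and Irf8 at day 6, -0.67, all lower in A. This comparison too was chosen after the values had been seen.

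The genes around the pathway were taken from lists that hold no member. Interferon genes themselves were almost absent: none of 11 passed the floor at day 6, and their levels summed to at most 1.84 in any column. Ifne, an epithelial type I interferon, was the one above the floor, at parturition, with 1.78 in AABB, 1.40 in BB, 0.57 in AB, 0.15 in A, 0.07 in B and 0.02 in Null. It was therefore highest where most interferon response genes were lowest. Ifna1, Ifna2, Ifna4 and Ifna5 were listed at 0 in every column.

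Of 9 receptor and kinase genes, 1 was higher in each of Null, B, A and AB at parturition. Among all genes 19.1%, 18.2%, 17.3% and 10.2% were higher in these genotypes, so the count does not stand above that of all genes. The gene was Il28ra, a subunit of the type III interferon receptor. Its levels were 6.72 in Null, 8.24 in B, 9.63 in A, 5.22 in BB, 7.53 in AB and 2.26 in AABB. Jak1 was higher at day 6 in B, A, BB and AB but not in Null, at 60.9 in B, 57.1 in A, 52.6 in BB and 56.8 in AB, against 32.4 in Null and 25.2 in AABB. Stat2 was within 2-fold throughout, at 18.2 in Null and 11.8 in AABB at parturition.

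In the induction pathway, which leads from sensors to interferon genes, 2 of 11 genes were higher and 2 lower in Null at parturition. Among all genes 19.1% were higher and 10.7% lower there, so the count of higher genes was near that of all genes. Tlr3, an endosomal RNA receptor, was highest in AABB, at 27.6, against 9.62 in Null, 8.90 in B, 8.69 in A, 15.3 in BB and 14.8 in AB. Irf3, the factor downstream of it, ran the same way, at 41.0 in AABB and 21.4 in Null. Tlr7, a receptor of plasmacytoid dendritic cells and macrophages, was lowest in AABB, at 0.49 against 2.17 to 3.26. Of 6 feedback regulators, Socs3 and Socs1 were higher in Null at parturition (1.15 and 1.05), and Socs3 had its largest ratio in A (2.06). Ptpn6, a phosphatase of blood cells, was higher at day 6 in B and A, at 35.6 and 28.0 against 10.7 in AABB.

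Another list held 45 interferon-induced genes that are no members, of which 44 were in the tables. At parturition 40 of them were compared, of which 21 were higher and 2 lower in Null, 15 and 2 in B, 12 and 2 in A, 10 and 3 in BB, and 8 and 3 in AB. Of all genes, 19.1% were higher in Null, 18.2% in B, 17.3% in A, 8.07% in BB and 10.2% in AB. Between 5.37% and 10.7% of all genes were lower, so the counts of lower genes were near or below those of all genes. At day 6, of 41 compared, 1 was higher in Null, 13 in B, 7 in A, 3 in BB and 8 in AB, and 0 were lower in any. Among all genes at day 6, 2.21% were higher in Null, 7.56% in B, 7.01% in A, 5.12% in BB and 6.78% in AB. The day 6 counts in Null and BB were thus near those of all genes. Between 2.09% and 5.54% of all genes were lower at day 6. Lgals3bp, a secreted glycoprotein, stood at parturition at 121 in Null, 117 in B, 107 in A, 66.4 in BB, 75.1 in AB and 28.5 in AABB. Isg20, an RNA exonuclease, ran the other way like Cmpk2, at 168 in AABB and between 9.27 and 22.7 in the other 5 columns, and so did Nampt, an enzyme of NAD synthesis, at 119 in AABB and between 25.7 and 59.2 in the others. Epsti1, an interferon target of macrophages, was far higher in B at day 6 than elsewhere, at 18.4 against 7.13 in A, 7.21 in AB, 3.20 in BB, 1.72 in Null and 3.33 in AABB.

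Markers of other cell types also differed between genotypes, not always in the order of the interferon response genes. In whole tissue more cells of a type and more RNA per cell cannot be told apart. Of all genes compared at parturition, 19.1% were higher in Null, 18.2% in B, 17.3% in A, 8.07% in BB and 10.2% in AB. In Null 10.7% were lower, and in B 10.1%. At parturition 7 of 10 macrophage markers were at least 2-fold higher and 1 lower in Null, 9 of 10 were higher in B, in A and in BB, and 10 of 10 in AB. Their summed level was 572 in Null, 1318 in B, 1365 in A, 967 in BB, 947 in AB and 401 in AABB, so it was highest in A and B, while the median of the interferon response genes was highest in Null. Endothelial markers were higher in 7 of 7 in Null, 6 of 7 in B and A, 5 of 7 in AB and 1 of 7 in BB, with sums from 92.9 in AABB to 273 in Null. Fibroblast markers were higher in 8 of 8 in all 5 genotypes, with sums from 397 in AABB to 2359 in BB, and adipocyte sums ran from 2914 in AABB to 16850 in Null. AABB was the lowest column of all 4 sums, as it was for 27 of 44 interferon genes. The dendritic cell sum, which includes the class II genes H2-Aa, H2-Ab1 and Cd74, was lowest in AABB too, at 292. It was 567 in Null, 890 in B, 745 in A, 514 in BB and 700 in AB. Of 10 luminal epithelial markers, 1 was higher and 2 lower in Null, and 5 higher and 2 lower in B. Skeletal muscle genes summed to 3043 in Null, 1842 in B and 1819 in A, against 185 in AABB and at most 7.29 in BB and AB. The 4 plasmacytoid dendritic cell markers summed to 37.4 in Null, 12.4 in B, 17.2 in A, 2.84 in BB, 2.24 in AB and 3.50 in AABB. Most of that sum in Null, A and B was Cox6a2, a cytochrome oxidase subunit that heart and skeletal muscle also express, at 35.8 in Null, 11.1 in B and 15.5 in A. Siglech, a surface receptor of these cells, stood between 0.75 in AABB and 2.61 in BB, and Ccr9 and Pacsin1 at most at 0.21. None of the macrophage, endothelial, fibroblast and luminal markers in the tables was at 0 in any column.

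At day 6, immune cell markers were higher in several genotypes. In B, 7 of 8 B and plasma cell markers, 6 of 7 T cell markers, 5 of 5 NK cell markers, 6 of 7 mast cell markers and 6 of 10 macrophage markers were at least 2-fold higher than in wild type. The summed B and plasma cell level was 283 in B and 210 in A, against 59.6 in AABB and 96.7 in Null. The mast cell sum was 475 in B, 463 in A, 379 in BB and 287 in AB, against 75.6 in Null and 69.4 in AABB. In BB, 5 of 7 mast cell and 5 of 10 macrophage markers were at least 2-fold higher, while the median of the interferon response genes was -0.01. In AB, whose interferon median was as high as in B, 0 of 8 B and plasma cell, 0 of 7 T cell and 0 of 5 NK cell markers were higher, while 5 of 10 macrophage and 5 of 7 mast cell markers were higher and 5 of 10 luminal epithelial markers lower. The 9 dendritic cell markers, which include the class II genes H2-Aa, H2-Ab1 and Cd74, summed highest in AB, at 1841. Their sum was 1357 in B, 1276 in A, 1136 in BB, 821 in AABB and 683 in Null. AB was thus the highest and Null the lowest column of this sum, as of the interferon medians. A sum of FPKM follows its most abundant genes, and the class II genes were not summed apart from the other markers. In Null at day 6, macrophage markers had a median of -0.32 and T cell markers one of 0.62. The part of these cell types in the levels of the interferon response genes was not tested.

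Medians of the log2 ratio to AABB were also taken by promoter letters, as a description. At day 6 in AB, the 14 genes with ISRE letters had a median of 0.70 and the 20 without 0.13. At parturition in B the order was the other way, with 0.42 for genes with the letters and 1.04 for those without, and in Null the medians were 1.27 and 1.14.

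The 8 genes with GAS letters had a lower median than the 26 without in every comparison to AABB but Null at day 6 (-0.15 and -0.16). At day 6 the medians were 0.28 and 0.42 in B, 0.12 and 0.32 in A, -0.39 and 0.07 in BB, and 0.13 and 0.60 in AB. At parturition they were 1.16 and 1.21 in Null, 0.53 and 0.85 in B, 0.45 and 0.78 in A, 0.41 and 0.74 in BB, and 0.04 and 0.35 in AB. The comparisons share the AABB column, and genes that lie side by side enter these medians separately.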

How the data were processed

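RNA-seq of mouse mammary gland in 6 Stat5 genotypes at 2 stages was used as deposited. The submitters' processing notes name CASAVA, TopHat and the build mm9 without versions, and how FPKM were estimated is not given in the sources used here. The deposited values are FPKM, 1 column per genotype that is the authors' mean of its samples: of values of at least 1 FPKM, 66.6% to 67.6% end in the recurring decimals of a mean of 3 where 3 samples are listed, and 0.996% to 1.33% where 2 are. Depth is unknown. The limma fits planned for per-sample columns could not be run, so no test is reported.

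Within a stage each column was divided by its median ratio to the genes' geometric means, taken over genes of at least 1 FPKM in all 6 columns (11733 and 10864 genes; factors 0.916 to 1.07 and 0.794 to 1.13). Genes of at least 1 FPKM in 2 columns were compared (13367 and 13061), as log2 ratios of scaled FPKM + 1, counted from 2-fold. Alternatives were a pseudocount of 0.1, no floor, a floor of 5, no scaling, scaling to the total without milk protein genes, and removal of length and GC trends (GENCODE M21, values for 98.2% of genes). Members and lists were chosen with earlier results of these data known. By rule, each role group's most abundant gene and the gene with its largest ratio were described in full; further genes were named after their values were seen. The calculation was tested on simulated data. Promoters came from RefSeq (GRCm38.p6), which is not the build of the files, and neighbours from its gene order. Python 3.11.15, numpy 2.4.6, pandas 2.3.3, statsmodels 0.14.6 and matplotlib 3.10.9 were used.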

Additional observations from a re-analysis of the deposited data

How the results depend on the processing

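No paired analysis was possible because the tables hold 1 mean per genotype, and for the same reason no replicate could be left out. The medians of the 44 genes kept their direction where they exceeded 0.1 and moved by less than 1.5-fold in ratio under all 6 alternatives in all 14 comparisons. Scaling shifts every ratio: with no scaling the median of all genes at parturition was 0.50 in Null, 0.53 in B, 0.50 in A, 0.30 in BB and 0.23 in AB, and with scaling to the total without milk protein genes 0.46, 0.39, 0.33, 0.18 and 0.29. Relative to that median, the members stood 0.99 to 1.18 higher in Null under all settings.

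Counts of genes past 2-fold were less steady. With a pseudocount of 0.1, 11 were higher and 2 lower in B at day 6, 9 higher in A, and 6 higher in AB against BB, and at parturition 2 were lower in Null, 1 lower in BB and 5 higher in AB. With no scaling, 2 were lower in BB and 3 higher in AB at day 6, and at parturition 27 were higher and 1 lower in B, 26 higher and 1 lower in A, and 7 higher and 1 lower in AB. With the total without milk protein genes, 8 were higher in A and 0 lower in BB at day 6, and at parturition 1 was lower in B, 20 were higher in A, and 8 higher and 0 lower in AB. With length and GC trends removed, 1 was lower in A, 0 lower in BB and 5 higher in AB at day 6. The cause was not tested. Of the column orders, recomputed after the values were seen, 14 genes followed allele number at parturition with no scaling (16.3% of all genes) and 12 with the milk-free total (15.2%), in place of 8 (10.0%). AB above BB at day 6 and below it at parturition held in 28 to 32 of 44 under the 3 scalings. Group medians of the GBP and IRG and of the Mx genes in AB at parturition, -0.15 and -0.10, turned to 0.12 and 0.03 with the milk-free total. The depth behind each value is unknown.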
